A study of Mus musculus with 18 samples.

Results

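Inhibitory receptors of T cells, called immune checkpoints, were followed in B16F10 tumors treated with a STING agonist. The 8 genes were chosen by name, with earlier results of these data known: Pdcd1 (PD-1), Ctla4, Btla, Lag3, Havcr2 (TIM-3), Tigit, Cd96 and Tox. Of these, 7 encode receptors of the cell surface and Tox encodes a nuclear protein of the HMG-box family. They are 8 of the 50600 genes of the count table, and all 8 were high enough in at least 2 tumors to be tested. Each is given as a share of the reads of the whole tumor, and again relative to Cd3e, which encodes the epsilon chain of the T cell receptor complex.

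B16F10 is a melanoma cell line of C57BL/6 mice, and the tumors were grown under the skin of 5 to 6 week old female C57BL/6 mice. CDN2 (CL656 in the sample labels) is a cyclic dinucleotide that activates STING, and exoCDN2 (exoCL656) is the same compound loaded into extracellular vesicles (EVs) of HEK293 cells that overexpress the membrane protein PTGFRN. The groups given 1 intratumoral dose were PBS, unloaded EVs (Exo), free CDN2 at 20 µg, free CDN2 at 100 µg, and exoCDN2 at 0.1 µg. After 2 doses, the second given 3 days after the first, the groups were PBS, CDN2 at 20 µg and exoCDN2 at 0.1 µg. A further group received 2 doses of CDN2 of an amount that its labels do not state. Every group held 2 tumors, collected 24 h after the last dose, for 18 tumors in 9 groups. The tumors were sequenced whole, so fewer T cells and less RNA per T cell cannot be told apart in any value below. No label says whether the tumors of a group came from separate mice or cages, so p-values measure the spread between these tumors. Free and loaded CDN2 differed in amount as well as in carrier, and these cannot be told apart. Tumors of 2 doses were collected later after the first dose than tumors of 1 dose, so dose number and time cannot be told apart. An exact two-sided permutation test of 2 tumors against 2 cannot go below p = 0.333, so tests rest on a model fitted across all genes.

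T cells that have seen antigen carry checkpoint receptors, which dampen signals of the T cell receptor when they meet ligands on tumor or antigen-presenting cells. Under lasting antigen exposure, CD8 T cells hold several of these receptors at once, a state called exhaustion, and Tox is a nuclear factor required for that state. The receptors are not limited to exhausted T cells: Ctla4 and Tigit are high in regulatory T cells, Lag3, Tigit and Cd96 are found on NK cells, Havcr2 is also expressed by dendritic cells and macrophages, and Btla is high in B cells.

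Sequences upstream of 4 genes are shown for a pair whose profile over groups lay nearer to that of Cd3e (Pdcd1, Tigit) and a pair whose profile lay far from it (Ctla4, Btla). Each is the 250 bases before the start of the RefSeq transcript in GRCm38.p6, read 5′ to 3′ on the gene's strand. Capitals mark GGAAA, or TTTCC on the other strand, the core recognised by NFAT factors that T cell receptor signaling activates. Pdcd1 is shown from chr1:94052554-94052803 (minus strand), Tigit from chr16:43664185-43664434 (minus), Ctla4 from chr1:60908775-60909024 (plus) and Btla from chr16:45224087-45224336 (plus).
Pdcd1: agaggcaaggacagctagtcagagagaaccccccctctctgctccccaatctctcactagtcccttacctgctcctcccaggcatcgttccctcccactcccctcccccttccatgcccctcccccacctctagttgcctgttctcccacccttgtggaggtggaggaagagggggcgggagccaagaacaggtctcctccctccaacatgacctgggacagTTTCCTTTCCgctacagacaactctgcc
Tigit: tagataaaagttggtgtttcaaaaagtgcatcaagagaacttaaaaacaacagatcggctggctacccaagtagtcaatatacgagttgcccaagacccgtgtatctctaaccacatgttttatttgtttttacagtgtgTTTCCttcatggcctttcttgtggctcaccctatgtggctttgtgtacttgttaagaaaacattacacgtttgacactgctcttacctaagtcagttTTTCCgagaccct
Ctla4: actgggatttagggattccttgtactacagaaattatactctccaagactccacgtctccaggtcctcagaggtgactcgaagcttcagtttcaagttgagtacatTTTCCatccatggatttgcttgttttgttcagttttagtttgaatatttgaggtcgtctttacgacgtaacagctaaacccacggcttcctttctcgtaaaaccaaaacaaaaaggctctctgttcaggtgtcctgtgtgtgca
Btla: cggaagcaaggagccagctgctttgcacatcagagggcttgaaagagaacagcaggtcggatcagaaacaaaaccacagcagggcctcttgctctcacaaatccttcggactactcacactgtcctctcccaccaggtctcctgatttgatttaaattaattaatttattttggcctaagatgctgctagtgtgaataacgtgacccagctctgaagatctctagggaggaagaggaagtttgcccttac

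The core was found 2 times in the Pdcd1 window, 28 and 23 bases before the start, and 2 times in that of Tigit, 110 and 13 bases before it. Ctla4 had 1 match, 144 bases before the start, and Btla had none. Of the other windows, Cd96 held 4 matches, Cd3e 2 and Havcr2 none. A match is common: 55.6% of 32851 promoter windows of this length held at least 1, with a mean of 0.854 per window. The core of interferon-stimulated response elements, GAAA repeated after a gap of 2 bases (2.98% of all windows, no match in the 6 windows of these genes), the motif TTCNNNGAA of STAT factors (7.02%, 1 match in Cd96) and TGANTCA of AP-1 (6.75%, 1 match in Havcr2) were searched on both strands as well. These are matches of letters and not measured binding sites. RefSeq windows were at hand for 6 of the 8 genes, without Lag3 and Tox.

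In GRCm38, Pdcd1 (ENSMUSG00000026285) lies at chr1:94038305-94052553 on the minus strand and Ctla4 (ENSMUSG00000026011) at chr1:60887000-60915832 on the plus strand. Lag3 (ENSMUSG00000030124) lies at chr6:124904361-124911705 (minus), Havcr2 (ENSMUSG00000020399) at chr11:46454935-46481255 (plus) and Tox (ENSMUSG00000041272) at chr4:6686353-6991557 (minus). Chromosome 16 holds Tigit (ENSMUSG00000071552) at chr16:43648867-43664146 (minus), Btla (ENSMUSG00000052013) at chr16:45224315-45257670 (plus) and Cd96 (ENSMUSG00000022657) at chr16:46035657-46120251 (minus). Cd3e (ENSMUSG00000032093) lies at chr9:44998740-45009627 (minus).

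The expected counts of a tumor summed to between 21608895 and 65983630, with the lowest total in tumor 1 of 2 doses of CDN2. Replicate tumors correlated across genes between 0.95 (2 doses of CDN2, where 27.4% of genes lay over 2-fold apart) and 0.993 (1 dose of PBS, 4.02%). T cell markers were detected in every group but were low. Their summed level was 17.6 to 21 CPM (counts scaled to a common library size) in the PBS tumors of 2 doses and 97.9 to 133 CPM after 2 doses of exoCDN2. Thy1 and Lck had the highest means of these markers (18.5 and 8.41 CPM, against 0.876 for Cd3e) and so weigh most in the sum. In the tumors given CDN2 at 100 µg the sum was 26.6 to 27.4 CPM, though 4 and 6 of the 18 markers had 3 counts or fewer. Melanoma markers summed to 9080 to 17400 CPM after 2 doses of CDN2, to 21500 to 22800 CPM after 2 doses of exoCDN2 and to 25400 to 31400 CPM in the other groups. Keratinocyte markers were high in both PBS tumors of 1 dose (63.8 to 117 CPM), and after 2 doses of exoCDN2 were 0.0705 CPM in one tumor and 80.9 CPM in the other.

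All 8 genes were expressed at a low level. Averaged over all 18 tumors, Havcr2 had 1.57 RPKM (reads scaled to transcript length and library size) and Lag3 1.37 RPKM, the highest of the 8. Tigit (0.623 RPKM), Pdcd1 (0.62 RPKM) and Ctla4 (0.363 RPKM) followed, then Cd96 (0.197 RPKM) and Btla (0.196 RPKM), and Tox was lowest at 0.0428 RPKM. Cd3e had 0.215 RPKM. Raw counts ran from 5 to 237 for Pdcd1, 49 to 677 for Havcr2 and 0 to 69 for Tox, and 5 tumors had 3 Tox counts or fewer, as did 3 tumors for Cd96 and 1 for Cd3e. The genes differed in how far they moved. The group with the highest mean CPM lay 25.8-fold above the lowest for Pdcd1, 21.5-fold for Lag3 and 16.1-fold for Tigit, but 5.65-fold for Ctla4, 5.63-fold for Havcr2 and 2.31-fold for Btla. None is given for Tox, Cd96 and Cd3e, whose lowest groups had 1, 4 and 5 counts in all. Below, CPM are scaled by TMM factors, and a gene was called when edgeR's quasi-likelihood test gave a Benjamini-Hochberg adjusted p below 0.05 over all genes and the ratio exceeded 2.

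**Figure D1:**
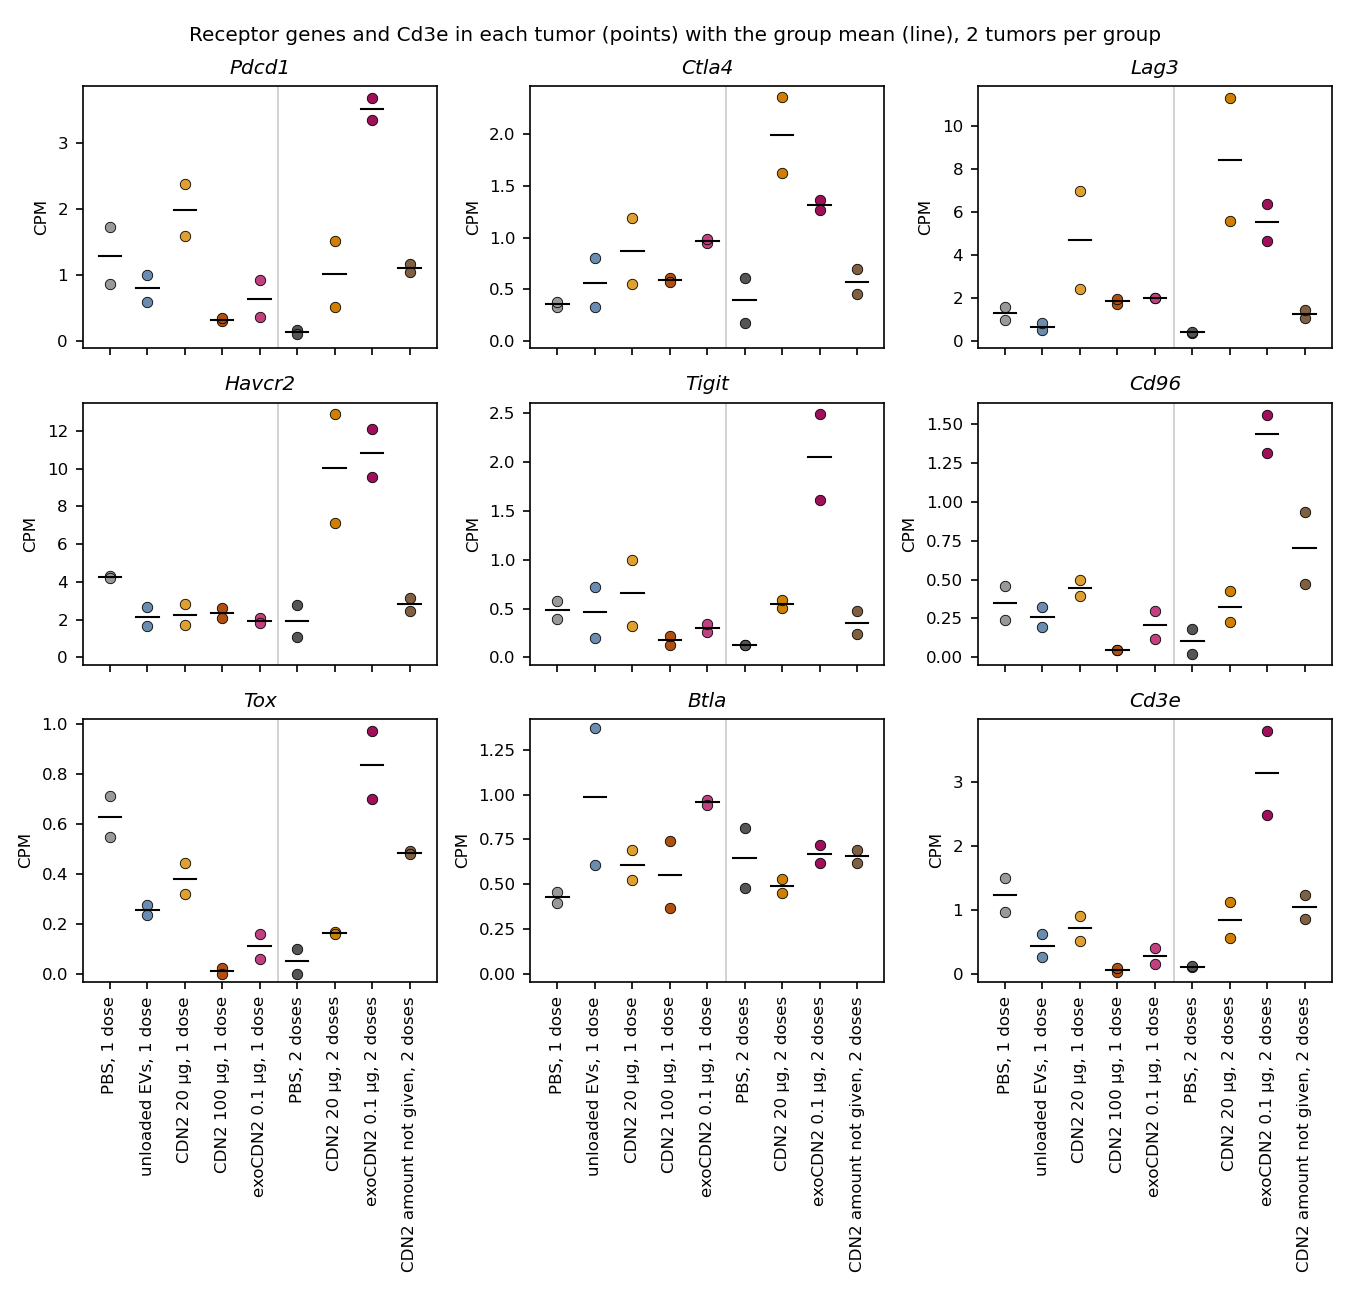
Level of each of the 8 genes and of Cd3e in every tumor (CPM after TMM scaling, linear axis that differs between panels), with 1 point per tumor and a line at the mean of the 2 tumors of each of the 9 groups. Pdcd1, Tigit, Cd96 and Cd3e were highest in both tumors given 2 doses of exoCDN2 (Pdcd1 3.68 and 3.34 CPM), Lag3 and Havcr2 were high after 2 doses of either drug, and Btla stayed between 0.366 and 1.37 CPM in all groups.

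Pdcd1 encodes PD-1, which binds PD-L1 and PD-L2 and recruits phosphatases to the T cell receptor. After 1 dose its level in the 2 tumors was 0.853 and 1.72 CPM with PBS, 0.583 and 1.00 with unloaded EVs, 1.59 and 2.38 with CDN2 at 20 µg, 0.293 and 0.346 with CDN2 at 100 µg, and 0.357 and 0.920 with exoCDN2. After 2 doses it was 0.163 and 0.109 CPM with PBS, 0.505 and 1.51 with CDN2 at 20 µg, 3.68 and 3.34 with exoCDN2, and 1.16 and 1.04 with CDN2 of unstated amount. Both tumors given 2 doses of exoCDN2 lay above every other tumor, and both PBS tumors of 2 doses lay below every other tumor. The group mean of 3.51 ± 0.241 CPM (SD, n = 2) after 2 doses of exoCDN2 was followed by 1.98 ± 0.563 after 1 dose of CDN2 at 20 µg, and these did not overlap. From there down to 1 dose of exoCDN2 each group overlapped the next one. CDN2 at 100 µg (0.32 ± 0.0377) and PBS of 2 doses (0.136 ± 0.0381) were each apart from the group above.

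Against PBS of the same number of doses, Pdcd1 rose after 2 doses of exoCDN2 by 4.65 ± 0.65 (log2 fold change ± SE, adjusted p = 0.000564) and after 2 doses of CDN2 by 2.92 ± 0.66 (0.0036). After 1 dose the differences were 0.62 with CDN2 at 20 µg, −1.02 with exoCDN2 and −2.0 ± 0.59 with CDN2 at 100 µg (adjusted p = 0.108), none of them called. The PBS groups themselves differed: Pdcd1 was lower after 2 doses of PBS than after 1, with a log2 fold change of −3.21 ± 0.65 (adjusted p = 0.0326). That call was lost without tumor 2 of 1 dose (−2.61, adjusted p = 0.29) and without either PBS tumor of 2 doses (−3.53 and −2.96, adjusted p = 0.0852 and 0.317). With the PBS tumors of both dose numbers pooled, the Pdcd1 difference was 2.29 for 2 doses of exoCDN2 (adjusted p = 0.0559) and 0.56 for 2 doses of CDN2 (0.585).

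Ctla4 encodes a receptor that competes with the stimulatory receptor CD28 for CD80 and CD86. Its levels after 1 dose were 0.328 and 0.376 CPM with PBS, 0.324 and 0.8 with unloaded EVs, 0.545 and 1.19 with CDN2 at 20 µg, 0.610 and 0.569 with CDN2 at 100 µg, and 0.952 and 0.989 with exoCDN2. After 2 doses they were 0.612 and 0.175 CPM with PBS, 1.63 and 2.36 with CDN2 at 20 µg, 1.36 and 1.27 with exoCDN2, and 0.450 and 0.692 with CDN2 of unstated amount. Unlike Pdcd1, Ctla4 was highest after 2 doses of free CDN2 (1.99 ± 0.52 CPM), above exoCDN2 of 2 doses (1.32 ± 0.0671) and of 1 dose (0.97 ± 0.0264), with no overlap between these 3. All lower groups overlapped the next. Ctla4 rose after 2 doses of CDN2 by 2.34 ± 0.57 (adjusted p = 0.00562). After 2 doses of exoCDN2 the difference was 1.72 ± 0.56 and missed the threshold (adjusted p = 0.0531); it passed without PBS tumor 1 of 2 doses (2.89, adjusted p = 0.0159) and with all PBS tumors pooled (1.81, adjusted p = 0.0156).

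Btla encodes a receptor of the same structural family that binds the TNF receptor superfamily member HVEM, the product of Tnfrsf14. Its values across all 18 tumors ran from 0.366 CPM in a tumor given CDN2 at 100 µg to 1.37 CPM in a tumor given unloaded EVs. The PBS tumors had 0.459 and 0.396 CPM after 1 dose and 0.816 and 0.482 CPM after 2 doses, and exoCDN2 tumors had 0.972 and 0.943 CPM after 1 dose and 0.721 and 0.620 CPM after 2. Btla was the gene of the 8 with the narrowest range over groups, and no comparison on the CPM scale called it. With 2 doses, its log2 fold change against PBS was −0.39 with CDN2 (95% interval −1.46 to 0.69) and 0.04 with exoCDN2 (−0.96 to 1.04). Markers of B cells, where Btla is known to be high, summed to 3.41 to 17.4 CPM over the tumors.

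Lag3 encodes a CD4-like receptor that binds MHC class II. After 1 dose it stood at 0.984 and 1.55 CPM with PBS, 0.475 and 0.825 with unloaded EVs, 2.40 and 6.98 with CDN2 at 20 µg, 1.73 and 1.95 with CDN2 at 100 µg, and 2.00 and 1.98 with exoCDN2. After 2 doses it stood at 0.367 and 0.416 CPM with PBS, 11.3 and 5.55 with CDN2 at 20 µg, 6.35 and 4.65 with exoCDN2, and 1.07 and 1.44 with CDN2 of unstated amount. All tumors given an agonist of stated amount exceeded both PBS tumors of the same dose number, as was also the case for Ctla4 among the other genes. In each of these comparisons alone, 28.5% to 34.4% of all tested genes were higher in this way. The 3 highest groups (8.44 ± 4.09, 5.5 ± 1.2 and 4.69 ± 3.24 CPM for 2 doses of CDN2, 2 doses of exoCDN2 and 1 dose of CDN2 at 20 µg) overlapped in sequence. Lag3 had the largest log2 fold change of the 8 genes after 2 doses of CDN2 (4.42 ± 0.56, adjusted p = 0.000128) and rose by 3.80 ± 0.55 after 2 doses of exoCDN2 (0.000648). After 1 dose of CDN2 at 20 µg the difference was 1.88 ± 0.49 and missed the threshold (adjusted p = 0.0561). DESeq2 called it (1.90, adjusted p = 0.00588), as did the edgeR fit of all 18 tumors (adjusted p = 0.0427), the fit without tumor 1 of that group (2.48, adjusted p = 0.00995) and the fit with PBS pooled (2.49, adjusted p = 0.012).

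Havcr2 encodes TIM-3, whose known ligands include galectin-9. Its levels after 1 dose were 4.33 and 4.22 CPM with PBS, 1.66 and 2.65 with unloaded EVs, 1.69 and 2.83 with CDN2 at 20 µg, 2.07 and 2.62 with CDN2 at 100 µg, and 2.08 and 1.82 with exoCDN2. After 2 doses they were 2.78 and 1.07 CPM with PBS, 12.9 and 7.11 with CDN2 at 20 µg, 12.1 and 9.54 with exoCDN2, and 3.13 and 2.48 with CDN2 of unstated amount. Every tumor treated once lay below both PBS tumors of 1 dose. In each of these comparisons alone, 23.5% to 36.2% of all tested genes were lower in this way. Every tumor given 2 doses of an agonist of stated amount lay above all other tumors. The tumors of 2 doses of exoCDN2 (mean 10.8 ± 1.83 CPM) and of CDN2 overlapped. Havcr2 rose against PBS by 2.37 ± 0.45 with 2 doses of CDN2 (adjusted p = 0.00125) and by 2.49 ± 0.44 with 2 doses of exoCDN2 (0.00257), while after 1 dose its differences were −0.92 with CDN2 at 20 µg and −1.13 ± 0.43 with exoCDN2 (adjusted p = 0.215), not called. Macrophage and monocyte markers, a population where Havcr2 is also known to be expressed, summed to 601 to 1320 CPM after 2 doses of CDN2 and 519 to 831 CPM after 2 doses of exoCDN2, against 123 to 155 CPM with PBS. Their part in the Havcr2 levels was not tested.

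Tigit and Cd96 encode receptors that bind PVR (CD155) and related nectins, for which they compete with the stimulatory receptor CD226. Tigit stood at 0.394 and 0.574 CPM after 1 dose of PBS, 0.194 and 0.725 with unloaded EVs, 0.322 and 0.997 with CDN2 at 20 µg, 0.122 and 0.223 with CDN2 at 100 µg and 0.258 and 0.345 with exoCDN2. After 2 doses it stood at 0.122 and 0.131 CPM with PBS, 0.505 and 0.584 with CDN2 at 20 µg, 2.49 and 1.61 with exoCDN2, and 0.471 and 0.240 with CDN2 of unstated amount. The 2 tumors given 2 doses of exoCDN2 had the highest Tigit values of all tumors. Cd96 showed the same top group, with 1.56 and 1.31 CPM after 2 doses of exoCDN2 against 0.184 and 0.0219 CPM with PBS and 0.224 and 0.425 CPM with CDN2 at 20 µg. After 1 dose, Cd96 was 0.241 and 0.456 CPM with PBS, 0.194 and 0.325 with unloaded EVs, 0.397 and 0.499 with CDN2 at 20 µg, 0.0488 and 0.0495 with CDN2 at 100 µg, and 0.119 and 0.299 with exoCDN2. CDN2 of unstated amount gave Cd96 0.471 and 0.932 CPM after 2 doses. For both genes the mean after 2 doses of exoCDN2 (Tigit 2.05 ± 0.627 CPM, Cd96 1.43 ± 0.175 CPM) was apart from the next group, and most of the groups below overlapped their neighbours.

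Against PBS, 2 doses of exoCDN2 raised Tigit by 3.98 ± 0.69 (adjusted p = 0.00216) and Cd96 by 3.74 ± 0.70 (0.00333). With 2 doses of CDN2, Tigit rose by 2.09 ± 0.72 (adjusted p = 0.0306), a call that was lost when any 1 of the 4 tumors was left out (adjusted p = 0.0594 to 0.118), and Cd96 differed by 1.68 ± 0.76 (adjusted p = 0.0815), not called. In the PBS group of 2 doses Cd96 rested on 9 counts in one tumor and 1 in the other. Its level there was 7.47% of that after 2 doses of exoCDN2 (10 counts against 173, 95% counting interval 3.52 to 14.1%, which covers counting error only).

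Tox, which encodes the nuclear factor, was the lowest of the 8 genes. After 1 dose its level was 0.547 and 0.713 CPM with PBS, 0.238 and 0.275 with unloaded EVs, 0.322 and 0.443 with CDN2 at 20 µg, 0.0244 and 0 with CDN2 at 100 µg, and 0.0595 and 0.161 with exoCDN2. After 2 doses it was 0.102 and 0 CPM with PBS, 0.168 and 0.159 with CDN2 at 20 µg, 0.701 and 0.972 with exoCDN2, and 0.493 and 0.479 with CDN2 of unstated amount. Both PBS tumors of 1 dose exceeded every other tumor except those given 2 doses of exoCDN2, whose range (0.837 ± 0.192 CPM) overlapped with theirs (0.63 ± 0.118 CPM). Tox rose after 2 doses of exoCDN2 by 3.93 ± 0.80 (adjusted p = 0.0057) against PBS of 2 doses, with 36 and 69 counts against 5 and 0. PBS thus stood at 6.15% of exoCDN2 (95% counting interval 1.96 to 14.8%). With all PBS tumors pooled the difference was 1.29 (adjusted p = 0.343). The difference with 2 doses of CDN2 was 1.59 ± 0.95 (adjusted p = 0.18). Tox was the only gene of the 8 called after 1 dose of any agent: it was lower with CDN2 at 100 µg, with 1 count in both tumors together against 61 with PBS, which is 1.94% of the PBS level (95% counting interval 0.0483 to 11.2%). The fitted log2 fold change, which depends on the prior count, was −5.39 ± 1.03 (adjusted p = 0.015), and no call remained when any 1 of the 4 tumors was left out.

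After 1 dose of any agent few of the 8 genes were called, which with 2 tumors per group does not show that they were unchanged. Unloaded EVs gave no call among them against PBS, where edgeR called 0% of 16927 genes and 540 genes had an unadjusted p below 0.05, 2 of them among the 8: Havcr2 (−0.99 ± 0.43) and Btla (1.20 ± 0.47). DESeq2 called none of the 8 there. With CDN2 at 20 µg none of the 8 was called (background 3.14% of genes in either direction, 2 members at an unadjusted p below 0.05, 1 called by DESeq2). With CDN2 at 100 µg, Tox was called lower (background 0.62% lower), and DESeq2 called 2 of the 8. ExoCDN2 gave no call against PBS (background 2.62%, 4 members at an unadjusted p below 0.05, 1 called by DESeq2), where Tox differed by −2.51 ± 0.74 (adjusted p = 0.0999), Ctla4 by 1.45 ± 0.57 (0.227) and Btla by 1.16 ± 0.47 (0.241). Against unloaded EVs, exoCDN2 gave none either (background 2.95%, 1 member at an unadjusted p below 0.05, 1 called by DESeq2), with the largest positive difference in Lag3 (1.62 ± 0.52, adjusted p = 0.132).

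Set side by side after 1 dose, exoCDN2 at 0.1 µg and CDN2 at 20 µg gave Pdcd1 levels of 0.638 ± 0.398 and 1.98 ± 0.563 CPM and Lag3 levels of 1.99 ± 0.0172 and 4.69 ± 3.24 CPM. The fitted differences were −1.64 ± 0.56 for Pdcd1 (adjusted p = 0.138) and −1.23 ± 0.48 for Lag3 (0.187). No gene of the 8 was called (background 0.608%, 3 members at an unadjusted p below 0.05, none called by DESeq2). Cd3e moved in the same comparisons: it was 0.286 CPM with exoCDN2, 0.717 CPM with CDN2 at 20 µg and 0.0617 CPM with CDN2 at 100 µg, against 1.23 ± 0.384 CPM with PBS. With CDN2 at 100 µg, Cd3e was called lower (−4.27 ± 0.75, adjusted p = 0.0101). It had 5 counts against 120, which is 4.92% of PBS with a counting interval of 1.57 to 11.8%. Cd3e was among the 6 of 18 T cell markers called lower, where 0.62% of all genes were. The part of this fall in the Tox value was not tested.

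After 2 doses, 7 of the 8 genes were higher than in PBS of 2 doses with at least 1 of the agonists. In those PBS tumors 6 of the 8 genes had differed from PBS of 1 dose at an unadjusted p below 0.05, 1 of them (Pdcd1) called. With CDN2 at 20 µg, 5 were called higher against PBS (Pdcd1, Ctla4, Lag3, Havcr2, Tigit), in a comparison that called 20% of all genes higher. The median log2 fold change over all 8 genes was 2.22 against 0.00 over all genes. With exoCDN2, 6 were called higher (Pdcd1, Lag3, Havcr2, Tigit, Cd96, Tox), where 8.87% of all genes were, and the median over the 8 was 3.77. T cell markers rose as well, 14 of 18 with CDN2 (median 2.69) and 17 of 18 with exoCDN2 (median 4.17), and Cd3e itself rose by 2.77 ± 0.70 (adjusted p = 0.00665) and 4.72 ± 0.68 (0.000648). Markers of NK cells, which are known to express Lag3, Tigit and Cd96, rose in 9 of 11 and 11 of 11 (medians 3.70 and 4.90). The part of these cells in the receptor levels was not tested.

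Without one tumor at a time, 3 to 6 genes were called for 2 doses of CDN2, with 3 when tumor 2 of CDN2 was left out (Pdcd1 1.81, adjusted p = 0.0723), and 6 or 7 were called for 2 doses of exoCDN2. With PBS of both dose numbers pooled, 3 were called for CDN2 and 5 for exoCDN2, where Pdcd1 (adjusted p = 0.0559) and Tox (0.343) were lost and Ctla4 was gained.

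**Figure D2:**
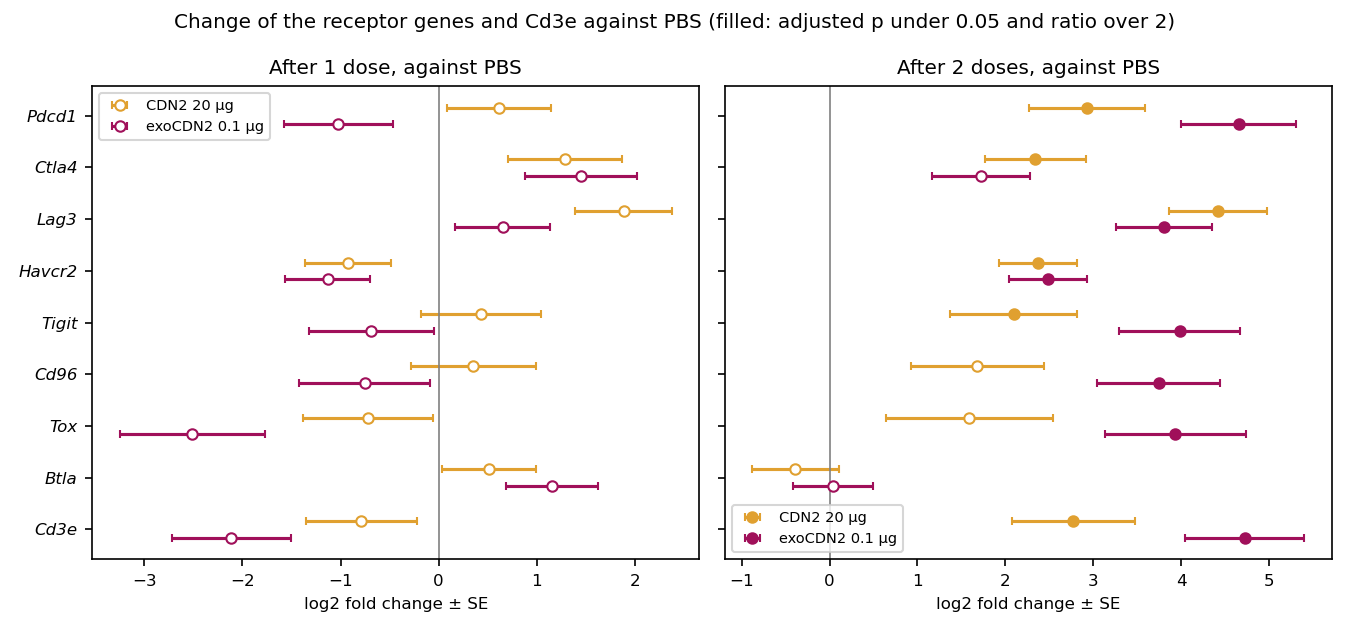
Log2 fold change of each of the 8 genes and Cd3e against PBS of the same number of doses, with bars of 1 SE, for CDN2 at 20 µg and exoCDN2 at 0.1 µg, on axes that differ between the panels; points are filled where called (edgeR's quasi-likelihood test, adjusted p below 0.05 and ratio over 2). After 1 dose no point is filled, and after 2 doses 5 of the 8 genes are filled for CDN2 and 6 for exoCDN2, as is Cd3e for both, with Btla near 0.

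After 2 doses, exoCDN2 at 0.1 µg and CDN2 at 20 µg divided the genes. Pdcd1 was higher with exoCDN2 by 1.73 ± 0.55 (adjusted p = 0.0294), Tigit by 1.89 ± 0.62 (0.0329), Cd96 by 2.06 ± 0.64 (0.0275) and Tox by 2.34 ± 0.75 (0.0305), with 7.34% of all genes called higher. Both tumors of exoCDN2 exceeded both of CDN2 for each of the 4, as they did for 34.4% of all tested genes. Ctla4 (−0.62, 95% interval −1.77 to 0.53), Lag3 (−0.61, −1.63 to 0.40), Havcr2 (0.12, −0.79 to 1.03) and Btla (0.43, −0.63 to 1.49) were not called, and their intervals include differences in both directions. Cd3e was higher with exoCDN2 by 1.95 ± 0.58 (adjusted p = 0.0229), and 6 of 18 T cell markers were called higher. Neutrophil markers were lower with exoCDN2 in 7 of 8 (20.1 to 64.1 CPM summed, against 207 to 901 with CDN2), where 12% of all genes were called lower, and 3 of 8 melanoma markers were higher. The 4 calls depended on single tumors: none was left without either exoCDN2 tumor or without tumor 1 of CDN2, the shallowest library, and 2 were left without tumor 2 of CDN2.

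**Figure D3:**
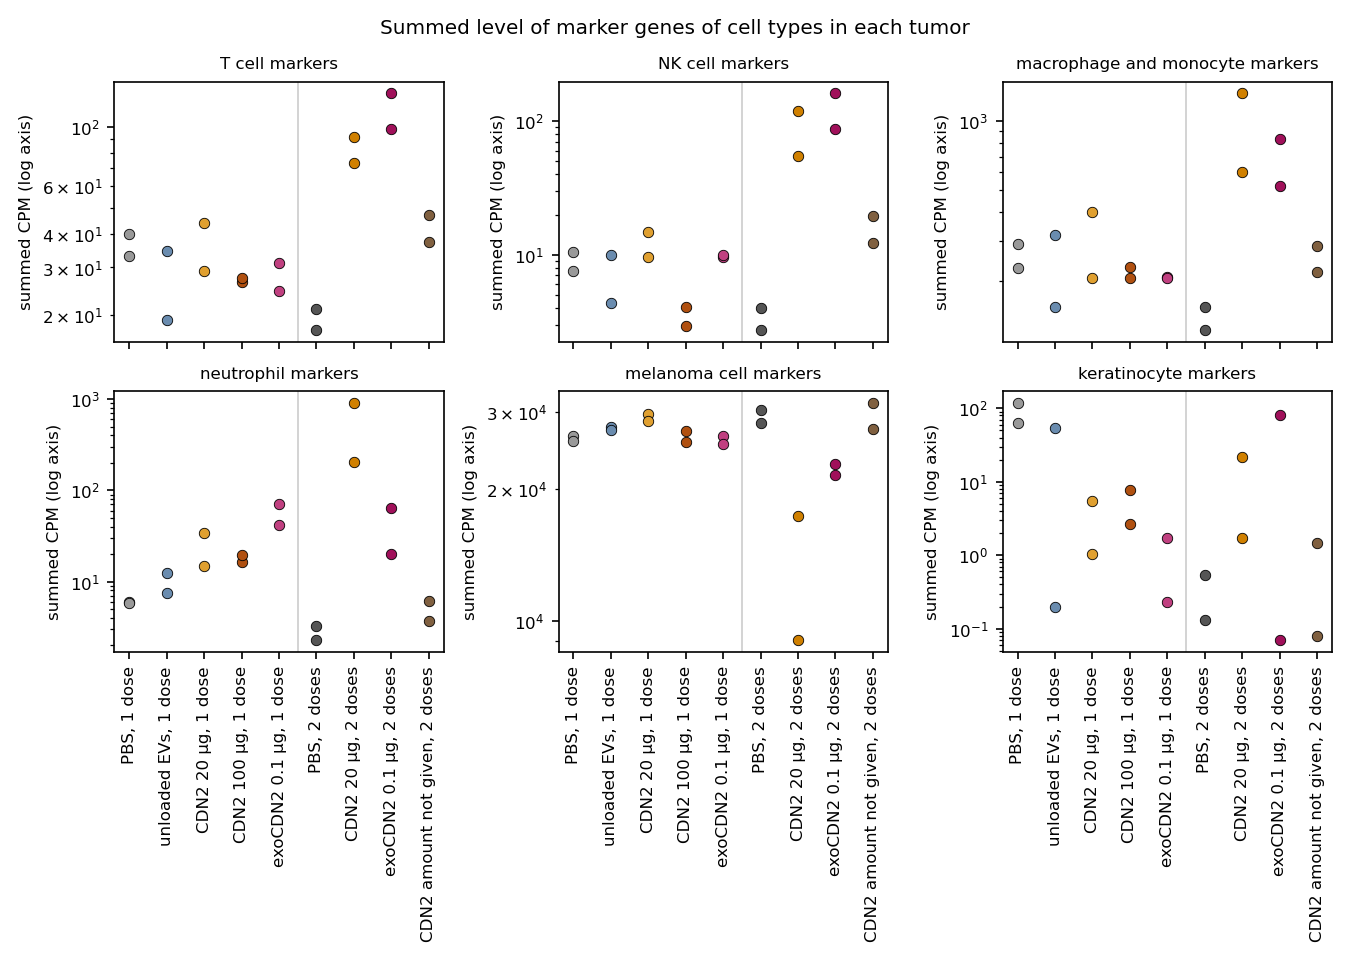
Summed CPM of the marker genes of T cells, NK cells, macrophages and monocytes, neutrophils, melanoma cells and keratinocytes in each tumor, on log axes, with 1 point per tumor by group. T cell and NK cell sums were highest after 2 doses of exoCDN2 (97.9 to 133 and 87.4 to 162 CPM), while neutrophil sums were highest after 2 doses of CDN2 (207 to 901 CPM). Thy1 and Lck weigh most in the T cell sum.

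Tumors of 2 doses were also set against tumors of 1 dose of the same agent. With exoCDN2, Pdcd1 was higher after the second dose by 2.46 ± 0.56 (adjusted p = 0.0157), Havcr2 by 2.47 ± 0.44 (0.00563), Tigit by 2.76 ± 0.63 (0.0159), Cd96 by 2.78 ± 0.65 (0.0177) and Tox by 2.92 ± 0.73 (0.0245), where 5.1% of all genes were called higher. Lag3 differed by 1.46 ± 0.48 (adjusted p = 0.0666), Ctla4 by 0.44 (0.646) and Btla by −0.51 (0.503). Cd3e rose by 3.46 ± 0.62 (adjusted p = 0.00542). None of the 5 calls was left without tumor 1 of 1 dose or tumor 1 of 2 doses of exoCDN2, 1 without tumor 2 of 1 dose and 4 without tumor 2 of 2 doses. With CDN2 at 20 µg the gene called higher was Havcr2 (2.15 ± 0.44, adjusted p = 0.00407; background 14.4%), while Pdcd1 differed by −0.90, Tox by −1.21 and Cd3e by 0.19, none of them called. In the PBS groups, Pdcd1 was the gene called, as lower (background 1.05%), Tox differed by −3.52 ± 0.81 (adjusted p = 0.0697) and Cd3e was lower by a log2 fold change of −3.38 ± 0.67 (0.0304).

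Relative to PBS of the same dose number, the effect of 2 doses exceeded that of 1 for 6 genes with exoCDN2. These were Pdcd1, Lag3, Havcr2, Tigit, Cd96 and Tox (background 5.12%). With CDN2 the effect of 2 doses was the larger for Lag3 and Havcr2 (background 11.7%). The difference of these differences between exoCDN2 and CDN2 was called for Pdcd1 and Tox (background 2.97%). The effects against PBS include the difference between the PBS groups (Pdcd1 −3.21, Tox −3.52, Cd3e −3.38), which cancels in the comparison of exoCDN2 with CDN2. For Cd3e these values were 6.84 ± 0.91 with exoCDN2, 3.56 ± 0.90 with CDN2 and 3.28 ± 0.85 between the agonists, all called. Without 1 tumor at a time, 3 to 6 genes were called for exoCDN2, with 3 without tumor 1 of either exoCDN2 group or tumor 2 of PBS of 1 dose. For CDN2 1 or 2 were called, with 1 without tumor 1 of CDN2 or tumor 2 of PBS at 1 dose or tumor 2 of PBS at 2 doses. Between the agonists, none was called in 6 of the 8 fits that leave out 1 tumor, 1 without tumor 2 of 1 dose of exoCDN2 and 4 without tumor 2 of 2 doses of CDN2. For Havcr2 with exoCDN2, the difference of 3.62 ± 0.62 is made up of 2.49 after the second dose and −1.13 after the first.

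CDN2 of unstated amount, fitted with all 18 tumors and 17110 genes, gave positive differences against PBS of 2 doses in all 8 genes (median 1.58), of which Pdcd1 was called (2.98 ± 0.63, adjusted p = 0.0377; background 0.918%). Tox (3.15, adjusted p = 0.0993) and Cd96 (2.71, adjusted p = 0.118) were not, and Cd3e was (3.13 ± 0.66, adjusted p = 0.0384). The 2 tumors lay below both tumors of CDN2 at 20 µg for Ctla4, Lag3, Havcr2 and Tigit, and above them for Tox, Cd96 and Btla. The share of all genes apart in this way was not computed. Since the amount is unknown, no test against the group of 20 µg was made.

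Relative to Cd3e, the differences for 2 doses of exoCDN2 against PBS moved down together, and the order of the genes hardly changed. The scaling itself gives this, since it shifts every gene by nearly the same amount, and it is no result about the receptors. In the PBS tumors of 1 dose there were 0.886 and 1.14 Pdcd1 counts per Cd3e count, 1.6 and 0.833 after 2 doses of PBS, 0.45 and 2.71 after 2 doses of CDN2, and 0.969 and 1.34 after 2 doses of exoCDN2. The PBS and exoCDN2 tumors overlapped in this ratio, and the fitted difference for 2 doses of exoCDN2 against PBS was −0.06 ± 1.05 (adjusted p = 0.954). Tigit per Cd3e was 1.2 and 1 with PBS and 0.656 and 0.644 with exoCDN2 after 2 doses (−0.75, not called), and Cd96 (−1.03), Tox (−0.73) and Lag3 (−0.93) were not called either. Ctla4 fell to 0.359 and 0.508 counts per Cd3e count from 6 and 1.33 with PBS (−3.06 ± 1.04, adjusted p = 0.00355), Havcr2 to 3.19 and 3.82 from 27.2 and 8.17 (−2.33 ± 0.93, 0.0135) and Btla to 0.19 and 0.249 from 8 and 3.67 (−4.71 ± 1.11, 3.24e-05). On this scale 93.6% of all genes were called lower and their median was −4.70, as Cd3e itself rose. The PBS ratios of 2 doses rest on 5 and 6 Cd3e counts. In PBS of 1 dose, both tumors together had 34 Ctla4, 411 Havcr2 and 41 Btla counts for 120 Cd3e counts. After 2 doses of exoCDN2 they had 160, 1300 and 81 counts for 372 Cd3e counts. These ratios were not tested against PBS of 1 dose.

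With 2 doses of CDN2 against PBS, Btla was called lower per Cd3e (−3.10 ± 1.06, adjusted p = 0.00744; background 70.5%, median of all genes −2.69), while Pdcd1 (0.39 ± 1.06), Havcr2 (−0.54) and Lag3 (1.57 ± 0.94, adjusted p = 0.12) were not called. Lag3 had 10.1 and 9.95 counts per Cd3e count in these tumors, against 3.6 and 3.17 with PBS and 1.67 and 1.86 with exoCDN2. ExoCDN2 against CDN2 after 2 doses was called lower for Lag3 (−2.50 ± 0.94, adjusted p = 0.0305) and Ctla4 (−2.71 ± 1.01, 0.0288), where 40.5% of all genes were (median −1.98). Neither call was left without tumor 2 of CDN2 or either exoCDN2 tumor. The 4 genes that were higher with exoCDN2 on the CPM scale were not called per Cd3e.

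After 1 dose, 6 of the 8 were called higher per Cd3e with CDN2 at 100 µg (Pdcd1, Ctla4, Lag3, Havcr2, Tigit, Btla), but so were 98.2% of all genes (median 4.89), since Cd3e had 1 and 4 counts there. Pdcd1, at 2.83 ± 1.08 (adjusted p = 0.0088), lay below that median. With exoCDN2, Ctla4 (3.81 ± 1.07, adjusted p = 0.00731), Lag3 (3.08 ± 0.98, 0.018) and Btla (3.49 ± 1.06, 0.0135) were called higher (background 81.2%, median 2.33). Unloaded EVs (background 0.13%) and CDN2 at 20 µg (1.09%) against PBS, and exoCDN2 against unloaded EVs (1.36%) and CDN2 (0.679%), gave no call by edgeR, with 2, 2, 1 and 1 members at an unadjusted p below 0.05. DESeq2 with Cd3e counts as size factors called 1 gene with CDN2 at 20 µg and 1 against unloaded EVs. Between the second and first dose, Ctla4, Havcr2 and Btla were higher per Cd3e in PBS (background 93.6%, median 3.36), and Ctla4, Lag3 and Btla were lower with exoCDN2 (93.2%, median −3.68). With CDN2 at 20 µg no member was called (3.39%, 1 at an unadjusted p below 0.05). CDN2 of unstated amount gave lower Ctla4, Havcr2 and Btla (92.6%, median −3.11).

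**Figure D4:**
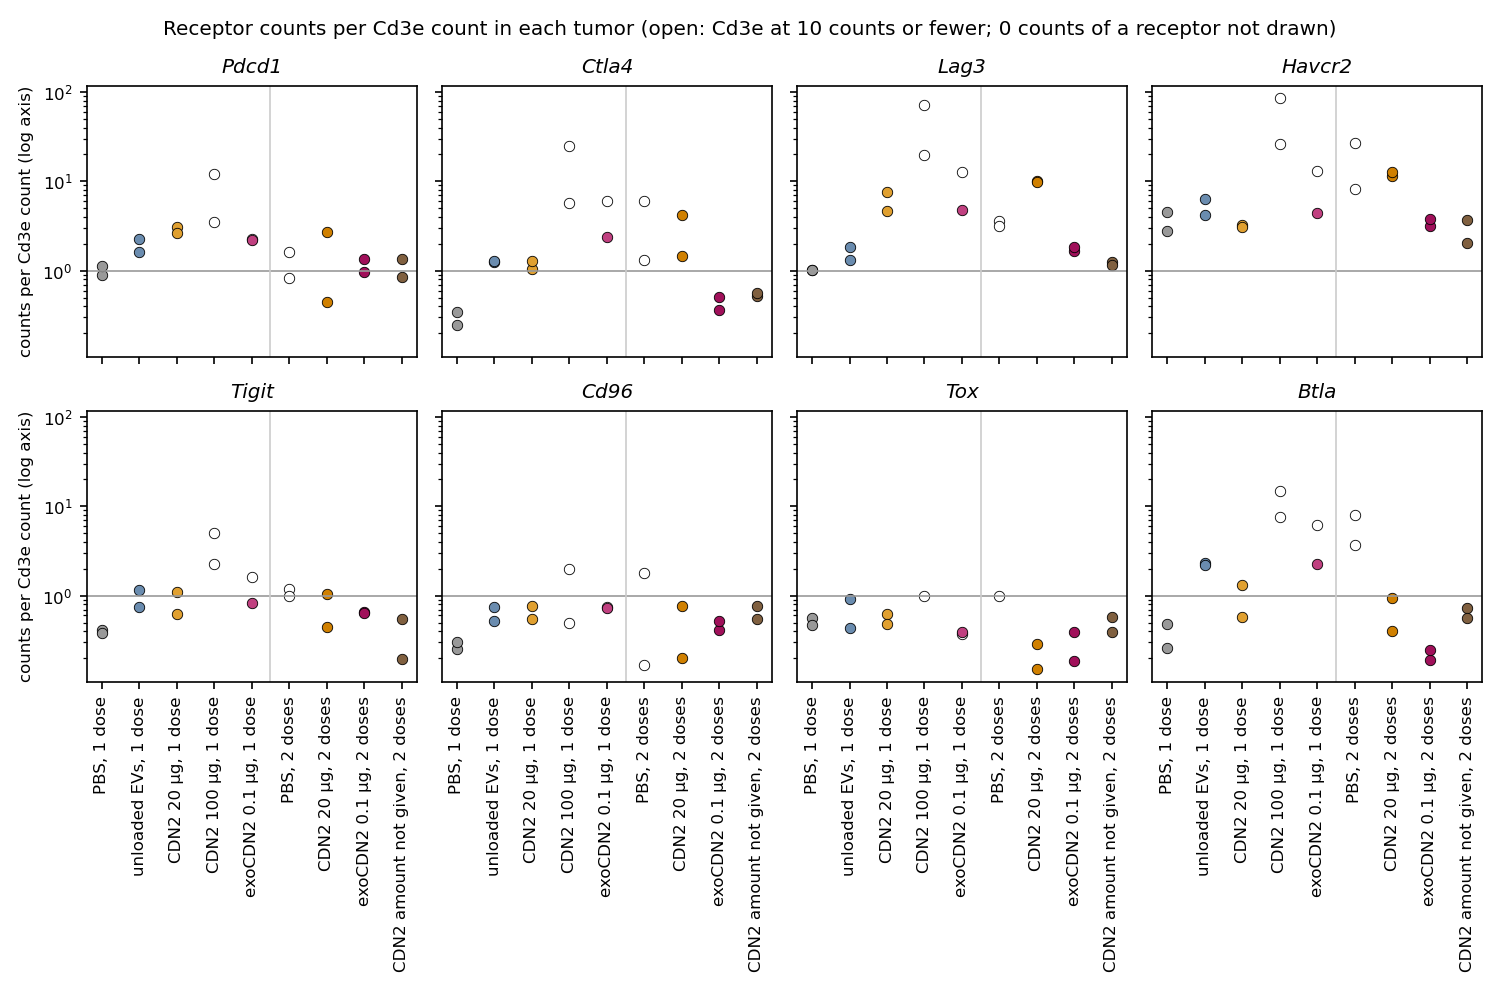
Counts of each of the 8 genes per Cd3e count in every tumor (log axis), with open points where Cd3e had 10 counts or fewer and no point where the gene had 0 counts. After 2 doses of exoCDN2 the ratio of Pdcd1 (0.969 and 1.34) lies among those of the other groups, while those of Ctla4 (0.359 and 0.508) and Btla (0.19 and 0.249) are near the bottom.

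Some ligands of the receptors were called after 1 dose of CDN2 at 20 µg or of exoCDN2, where the receptors were not. Cd274 and Lgals9 averaged 137 and 185 CPM, against 0.325 (Tox) to 4.28 CPM (Havcr2) for the 8 genes. A change of the same size is more easily called at the higher level. Of 16 ligands tested, Cd274 (PD-L1) was called higher after 1 dose of CDN2 at 20 µg (3.19, adjusted p = 0.00217) and of exoCDN2 (3.17, 0.00227), as was Lgals9 (galectin-9; 1.05 and 1.15), where 3.14% and 2.62% of all genes were called in either direction. With exoCDN2, Cd80 (2.57, adjusted p = 0.0186) and Cd86 (2.12, 0.0253), the ligands of CTLA-4 and CD28, rose as well. After 2 doses, 9 ligands rose with CDN2 (median of the 16 1.97, with 20% of all genes called higher) and 10 with exoCDN2 (median 2.13, with 8.87%), among them Cd274 (5.34 and 4.46), Pdcd1lg2 (PD-L2; 3.91 and 3.02), Tnfrsf14 (the ligand of BTLA; 2.27 and 3.06) and Lgals9 (2.98 and 2.66). Pvr rose with CDN2 (1.85) and was lower with exoCDN2 than with CDN2 (−1.22), while H2-Aa, an MHC class II gene and thus part of a LAG-3 ligand, rose with exoCDN2 (2.59) and was higher than with CDN2 (2.58). Whether ligands and receptors differ in their response was not tested.

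Of the stimulatory receptors, all 8 tested rose with 2 doses of either agonist (medians 2.49 with CDN2 and 3.45 with exoCDN2), where 20% and 8.87% of all genes were called higher. Cd69, an early activation marker, was called after 1 dose of CDN2 at 20 µg (4.55) and of exoCDN2 (4.84). Tnfrsf9 (4-1BB) was called at 5.30 for CDN2 and 3.80 for exoCDN2, and was lower with exoCDN2 than with CDN2 (−1.49), as was Tnfrsf18 (GITR; −1.17), whereas Cd28 was higher (1.84). Other genes of exhausted and stem-like T cells rose in 10 of 20 tested with CDN2 and 11 of 20 with exoCDN2 after 2 doses, against the same shares of all genes. Between the 2 agonists, Tbx21 (T-bet, 2.05), Tcf7 (1.00) and Nr4a3 (1.52) were higher with exoCDN2 and Id3 was lower (−1.99). Mean levels over all tumors were 88.9 CPM for Nr4a3, 11.2 for Tcf7, 4.33 for Id3 and 0.547 for Tbx21, against 0.876 for Cd3e. Melanoma markers also differed between these groups (9080 to 17400 CPM with CDN2, 21500 to 22800 with exoCDN2). Which cells gave these differences was not tested. Markers of regulatory T cells rose in 5 of 7 with either agonist (summed 36.9 to 74.8 CPM with CDN2, 20.5 to 33.1 with exoCDN2, 7.66 to 10.4 with PBS). Lrrc32 and Ikzf2 had the highest means of this list (7.95 and 7.86 CPM, against 0.34 for Foxp3). Foxp3 overlapped between these groups, at 0.112 to 0.531 CPM with CDN2, 0.409 to 0.592 with exoCDN2 and 0.367 to 0.438 with PBS.

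The genes whose profile over the 9 group means was nearest to each member, by the root mean square (RMS) difference of centred log2 CPM among 14571 protein-coding genes, differed between the members. For Tox these were Cd6 (0.36), Cd5 (0.41) and Cd3e (0.45), and for Tigit they were Rasgrp1 (0.24), Cd28 (0.25) and Arhgap4 (0.29). Pdcd1 had Prph (0.46) and Erap1 (0.48) among its nearest, and Cd96 was nearest to Clec12a (0.39), Rgs8 (0.41) and Ubash3a (0.43). Lag3 was nearest to Fcgr4 (0.22), Oas1a (0.25, which may share reads with its paralogs) and Ube2l6 (0.28), and Havcr2 to Abcg1 (0.23), Mak (0.24) and Inpp5d (0.24). Ctla4 had Arl5c (0.22), Ston2 (0.22) and Nuak2 (0.24), and Btla had Itga8 (0.16), Unc80 (0.19) and B930094E09Rik (0.21). Cd3e ranked 3 for Tox, 6 for Cd96, 40 for Pdcd1 and 516 for Tigit, but 7997 for Havcr2, 8528 for Lag3, 14064 for Btla and 14069 for Ctla4. The nearest pairs of members were Pdcd1 and Tigit (0.47), Pdcd1 and Cd96 (0.48), Cd96 and Tox (0.50) and Tigit and Cd96 (0.52). These are descriptions over 9 group means that share libraries and depth.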

How the data were processed

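Whole B16F10 tumors were sequenced in 18 libraries. The authors filtered the reads, aligned them to GRCm38 (mm10 in the labels' processing notes) with OSA in OmicSoft ArraySuite, and ran RSEM with Ensembl 88 gene models. They deposited the resulting expected counts as they were, not normalized. Between 8.75% and 12.7% of the values of a tumor were not whole numbers. Such estimates divide shared reads, so genes with close paralogs are uncertain. Symbols and positions came from GENCODE M21, which gave a symbol to 50376 of 50600 identifiers.

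Counts were rounded and fitted in edgeR 4.0.16 (R 4.3.3): filterByExpr with a minimum count of 10 in 2 tumors and a minimum total of 15, TMM factors, 1 mean per group, and quasi-likelihood F tests over 16927 genes in the 16 tumors of stated amount, which share 1 estimate of spread (biological coefficient of variation 0.22). The tumors of unstated amount were tested in a fit of all 18 tumors. The study's methods used DESeq2, run here (1.42.0) as an alternative. The Benjamini-Hochberg adjustment covered all genes, and a gene was called with an adjusted p below 0.05 and a ratio over 2. SE are the log2 fold change divided by the square root of F. For values relative to Cd3e, the same fit took the Cd3e count as the library size. A count of 3 or fewer was taken as the floor, and counting intervals are exact 95% intervals. The procedure was tested on simulated data. For the scale relative to Cd3e, the simulated reference was deeper than Cd3e and did not change between groups. That test therefore does not cover low or changing Cd3e counts.

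Alternatives were DESeq2, RLE factors, no filter, only the groups compared, all 18 tumors, pooled PBS, no ratio limit, summed Cd3d, Cd3e and Cd3g, the replicate number as a block, and each tumor left out. The members and lists were chosen with earlier results of these data known. Named were all 8 genes and Cd3e, the 3 genes most like each, at most 3 called genes per list and comparison with the smallest p, and called ligands; 1 gene near Pdcd1 is not reported here. Promoters came from RefSeq (GRCm38.p6). Figures were drawn with matplotlib 3.10.9.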

Additional observations from a re-analysis of the deposited data

Results flagged for a closer look

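The effect of 2 doses against PBS differed from that of 1 dose for several of the genes. The test was of the difference itself, in edgeR's quasi-likelihood fit with Benjamini-Hochberg adjustment. With exoCDN2 the effect of 2 doses exceeded that of 1 as follows, on the log2 scale. Tox differed by 6.44 ± 1.09 (adjusted p = 0.00479), Pdcd1 by 5.67 ± 0.86 (0.00246) and Tigit by 4.67 ± 0.94 (0.011). Cd96 differed by 4.49 ± 0.97 (0.0155), Havcr2 by 3.62 ± 0.62 (0.00498) and Lag3 by 3.15 ± 0.72 (0.0203). With CDN2 at 20 µg, Havcr2 differed by 3.29 ± 0.62 (adjusted p = 0.00557) and Lag3 by 2.53 ± 0.71 (0.0275). Between exoCDN2 and CDN2 this difference was itself larger with exoCDN2 by 3.37 ± 0.78 for Pdcd1 (adjusted p = 0.0278) and 4.13 ± 1.07 for Tox (0.0353), though in 6 of the 8 fits that leave out 1 tumor no gene of the 8 was called here. The last values compare the change from 1 to 2 doses of each agonist directly, and the PBS tumors cancel out of them. The values against PBS include the fall from 1 to 2 doses of PBS (Tox −3.52, Pdcd1 −3.21, Cd3e −3.38). For Cd3e the same tests gave 6.84 ± 0.91 with exoCDN2 (adjusted p = 0.00138) and 3.56 ± 0.90 with CDN2 (0.018). Between the agonists Cd3e gave 3.28 ± 0.85 (adjusted p = 0.0351). The part of this shift in the receptor values was not tested. The agonists differed in amount, which cannot be told apart from the carrier. With 2 tumors per group, no tumor could be tested as standing apart from its group.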

How the results depend on the processing

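No called value changed sign. Of the fitted log2 fold changes (1 value per gene, comparison and fit) on the CPM scale, 7 of 933 under other settings and 30 of 608 without 1 tumor had a sign other than the reported one, as did 6 of 632 and 43 of 416 relative to Cd3e. Counts of the 8 genes called moved by over 1.5 times as follows, and the cause was not tested. With DESeq2 they were 1 for 1 dose of CDN2 at 20 µg, 2 at 100 µg, 1 for 1 dose of exoCDN2 against PBS and 1 against unloaded EVs, 2 for PBS of 2 doses against 1, 3 for CDN2 of unstated amount, and 4 in place of 2 for the dose difference of exoCDN2 minus CDN2. Without a filter they were 1, 3, 2, 1, 4, 4 and 4 in the same order, and 2 for 1 dose of exoCDN2 against CDN2. With only the groups compared, which leaves fewer tumors to estimate the spread, they were 3 for CDN2 at 100 µg, 4 for 1 dose of exoCDN2 against PBS and 1 against unloaded EVs, 3 for 2 doses of CDN2, and 0 for exoCDN2 against CDN2 after 2 doses, for PBS and for CDN2 of 2 doses against 1. With all 18 tumors they were 1 for 1 dose of CDN2 at 20 µg and 2 for PBS of 2 doses against 1. With PBS pooled they were 1 and 3 for 1 and 2 doses of CDN2 at 20 µg, and 0 for CDN2 at 100 µg and of unstated amount. Relative to Cd3e, DESeq2 called 1 for 1 dose of CDN2 at 20 µg, 1 for exoCDN2 against unloaded EVs and 2 for 2 doses of CDN2. The mean CPM of Havcr2 in PBS of 1 dose moved by more than its SD with DESeq2 size factors.

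Without 1 tumor at a time, the counts of genes called on the CPM scale ran from 0 to 1 for 1 dose of CDN2 at 20 µg, 0 to 0 for 100 µg (1 with all tumors), 3 to 6 for 2 doses of CDN2, 6 to 7 for 2 doses of exoCDN2, 0 to 2 for exoCDN2 against CDN2 after 2 doses, 0 to 1 for PBS, 0 to 2 for CDN2 and 0 to 4 for exoCDN2 of 2 doses against 1, and 0 to 2 for CDN2 of unstated amount. The dose differences ran from 1 to 2 for CDN2, 3 to 6 for exoCDN2 and 0 to 4 between them. Relative to Cd3e the ranges were 4 to 6 for CDN2 at 100 µg, 0 to 3 for 1 and 1 to 3 for 2 doses of exoCDN2 against PBS, 0 to 1 for 2 doses of CDN2, 0 to 2 for exoCDN2 against CDN2, 1 to 3 for PBS and 2 to 3 for exoCDN2 of 2 doses against 1, and 1 to 3 for CDN2 of unstated amount. Leaving out a tumor leaves a group of 1, which is assumed to vary like the others.

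With the replicate number as a block, counts equalled those without it except for 3 in place of 2 in the dose difference of exoCDN2 minus CDN2 and, relative to Cd3e, 3 in place of 2 for exoCDN2 against CDN2 after 2 doses and 4 in place of 3 for PBS. The labels give no pairing, and deviations of same-numbered tumors correlated at 0.0139 on average (−0.163 to 0.322). Crossed numbers, chosen after seeing the data, gave 2 in place of 1 for 2 doses of CDN2 relative to Cd3e. With 1 and 4 Cd3e counts at 100 µg and 5 and 6 in PBS of 2 doses, depth limits the values relative to Cd3e.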
